A study of Mus musculus with 36 samples.

Results

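The mouse genes for proteasome subunits were taken as every row of the deposited table whose symbol is Psma, Psmb, Psmc or Psmd followed by a number, which gave 39 of 18845 genes. They comprised 7 alpha-ring genes, 4 structural beta genes, 3 catalytic beta genes, 3 immunoproteasome genes, 2 tissue-restricted 20S genes, 6 ATPase genes, 3 other base genes, 8 lid genes and 3 genes for assembly chaperones of the 19S particle. Psma8 and Psmb11, the tissue-restricted pair, did not pass the filter of 1 CPM in at least 3 libraries, so 37 members were tested in each fit. CPM is the number of reads of a gene scaled to a library total of 1000000.

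The proteasome is the barrel-shaped protease that degrades proteins marked with ubiquitin. Its 20S core is built of rings of alpha subunits, which form the gate, and rings of beta subunits, some of which carry the cutting sites. The 19S particle on its ends binds ubiquitin chains, removes them and uses ATP to unfold the substrate and feed it in. Interferon induces the immunosubunits Psmb8, Psmb9 and Psmb10, which can replace the standard catalytic subunits and favour peptides for display on MHC class I.

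RNA had been recovered with the HA tag on ribosomal protein Rpl22 (the RiboTag allele), which every group carried and which needs Cre to be switched on. Diaphragm enriched for synapses came from Ribo-tag mice without Cre (Cre-negative) and from ChAT-Cre;Ribo-tag mice (Cre-positive), in which the choline acetyltransferase gene drives Cre, so that cholinergic cells such as motor neurons can carry the tag. Spinal cord, labelled as soma, came from ChAT-Cre;Ribo-tag mice alone, and no Cre-negative spinal cord was analysed here. Each of these 3 kinds of sample was taken in the embryo (E15.5), after birth (P0.5 and P10, in days) and from 2-month-old adults, in 3 libraries each, which gave 12 groups and 36 libraries. No treatment is named. The labels do not say whether libraries of a group came from separate animals, so p-values measure only the spread between these libraries, which may be technical.

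The Cre-negative libraries hold what the purification recovers without Cre. In units of 1000000 reads, the depth was 68.2 to 93.7 in Cre-negative diaphragm, 86.0 to 107 in Cre-positive diaphragm and 63.7 to 71.8 in spinal cord, and 3 reads came to at most 0.0471 CPM in any library. In every group 1 library lay between the other 2 for 48.1% to 87.4% of genes and was close to their weighted mix. It was replicate 3 in 9 of 12 groups, and otherwise replicate 2 of E15.5 Cre-negative, replicate 1 of P0.5 Cre-positive and replicate 1 of adult Cre-negative diaphragm. Counts are therefore also given without these intermediate libraries. In P0.5 Cre-positive diaphragm replicate 1 lay close to replicate 3 alone, with a weight of 0.965 on it and 0.0345 on replicate 2. Replicate 1 of P0.5 Cre-negative diaphragm stood apart, with 46.2% of genes at 0.

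The labelled tissues were set against marker genes. Summed motor neuron markers (Chat, Slc18a3, Slc5a7, Mnx1, Isl1 and Prph) reached 1391 to 2228 CPM in spinal cord, 0 to 66 CPM in Cre-positive diaphragm and 0.431 to 70.6 CPM in Cre-negative diaphragm. Skeletal muscle markers summed in diaphragm to 58175 to 81180.1 CPM at E15.5, 153512 to 167980 CPM at P0.5, 84473 to 95946 CPM at P10 and 90212 to 106659 CPM in adults. In spinal cord they summed to 1397 to 3200 CPM at E15.5, 1160 to 5290 CPM at P0.5, 68.2 to 1052 CPM at P10 and 9.20 to 19.2 CPM in adults. Oligodendrocyte markers in spinal cord summed to 81.4 to 108 CPM at E15.5, 832 to 904 CPM at P0.5, 14065 to 18664 CPM at P10 and 2202 to 3730 CPM in adults. The part of either in the age changes of spinal cord was not tested. In such bulk samples fewer cells of a type and less RNA per cell cannot be told apart.

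Promoter windows from 250 bases before to 50 bases after the gene start were on hand from RefSeq (build GRCm38.p6) for 32 of the members. They were searched on both strands for TGACNNNGC (the core of the antioxidant response element, bound by Nfe2l1 and Nfe2l2), GAAANNGAA (an interferon-stimulated response core), TTCNNNGAA (a gamma-activated site) and CCAAT. A gene was counted once where any of its windows held the motif. TGACNNNGC occurred in 5 of 32 members and in 14% of all 27025 genes with a window (12.4% of 32851 windows). GAAANNGAA occurred in 5 of 32 members and 9.76% of genes (8.56% of windows), and TTCNNNGAA in 2 of 32 and 9.55% (8.30%). CCAAT occurred in 13 of 32 members, 5 of them alpha-ring genes, and in 41.1% of genes (37.4% of windows). A match describes the letters of the window and shows no binding.

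Psmb5, at chr14:54617946-54618245 on the minus strand, and Psmb6, at chr11:70525107-70525406 on the plus strand, are the catalytic genes with a window. Both hold TGACNNNGC (capitals), and they are shown because their levels moved in opposite directions at birth in spinal cord.
Psmb5: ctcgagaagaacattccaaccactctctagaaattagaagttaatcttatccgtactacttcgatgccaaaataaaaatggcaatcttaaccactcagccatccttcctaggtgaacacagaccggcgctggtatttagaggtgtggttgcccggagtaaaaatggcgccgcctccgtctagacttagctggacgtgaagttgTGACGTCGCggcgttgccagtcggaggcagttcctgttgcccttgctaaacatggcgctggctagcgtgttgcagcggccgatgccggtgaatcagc
Psmb6: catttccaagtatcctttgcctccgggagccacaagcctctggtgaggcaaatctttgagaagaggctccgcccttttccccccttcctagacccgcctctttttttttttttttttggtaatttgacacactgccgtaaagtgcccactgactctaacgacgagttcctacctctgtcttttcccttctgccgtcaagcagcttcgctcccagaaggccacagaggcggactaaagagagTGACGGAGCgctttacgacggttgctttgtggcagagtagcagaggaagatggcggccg

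The ATPase gene Psmc5, at chr11:106255935-106256234 on the plus strand, holds none of the 4 motifs in its window. The lid gene Psmd12, at chr11:107479278-107479577 on the plus strand, holds TGACNNNGC on the opposite strand (capitals). They are shown because both fell at birth and rose afterwards in spinal cord.
Psmc5: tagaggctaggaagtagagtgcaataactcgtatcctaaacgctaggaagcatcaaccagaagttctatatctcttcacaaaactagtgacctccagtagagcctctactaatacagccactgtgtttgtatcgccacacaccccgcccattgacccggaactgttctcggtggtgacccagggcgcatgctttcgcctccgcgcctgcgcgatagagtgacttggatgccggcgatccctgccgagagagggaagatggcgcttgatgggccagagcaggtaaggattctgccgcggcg
Psmd12: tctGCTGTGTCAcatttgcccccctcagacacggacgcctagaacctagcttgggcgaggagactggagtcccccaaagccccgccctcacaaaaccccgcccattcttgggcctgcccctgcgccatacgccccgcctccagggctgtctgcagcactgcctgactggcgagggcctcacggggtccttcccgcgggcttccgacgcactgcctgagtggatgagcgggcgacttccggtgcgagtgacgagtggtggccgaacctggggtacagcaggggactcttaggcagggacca

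The immunosubunit genes Psmb9 (34182030 to 34187330) and Psmb8 (34198195 to 34201454) lie in the MHC class II region of chromosome 17, beside the peptide transporter genes Tap1 (34187556 to 34197225) and Tap2 (34204479 to 34216321), all within 34292 bases of GRCm38.p6. The Psmb8 window, chr17:34197945-34198244 on the plus strand, holds TTCNNNGAA, and the Psmb9 window, chr17:34187281-34187580 on the minus strand, holds CCAAT on the opposite strand (capitals in each). They are shown because Psmb8 and Psmb9 are the immunosubunit genes of this region. GAAANNGAA was in the windows of 0 of 3 immunosubunit genes and of 9.76% of all genes, so nothing is read from its absence.
Psmb8: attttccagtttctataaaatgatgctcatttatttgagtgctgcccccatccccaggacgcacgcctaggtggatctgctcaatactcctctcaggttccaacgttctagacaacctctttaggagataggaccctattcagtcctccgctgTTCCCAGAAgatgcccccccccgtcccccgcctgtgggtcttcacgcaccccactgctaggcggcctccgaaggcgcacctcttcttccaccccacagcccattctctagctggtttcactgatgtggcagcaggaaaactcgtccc
Psmb9: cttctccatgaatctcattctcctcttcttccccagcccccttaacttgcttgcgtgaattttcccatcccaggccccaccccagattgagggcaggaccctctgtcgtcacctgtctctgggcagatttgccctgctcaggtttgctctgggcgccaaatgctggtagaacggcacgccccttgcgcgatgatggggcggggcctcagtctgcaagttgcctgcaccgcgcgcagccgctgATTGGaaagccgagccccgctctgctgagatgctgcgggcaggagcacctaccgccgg

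In spinal cord most 19S genes fell between E15.5 and P0.5 and rose afterwards to adult age, while the standard 20S genes moved both ways. Calls are limma adjusted p-values under 0.05 on log2(CPM + 1), and a change is the later minus the earlier group on that log2 scale, which understates the change of low genes. Between E15.5 and P0.5, 14 of 17 ATPase, base and lid genes fell and 0 rose, and of 14 standard 20S genes 4 rose and 4 fell. Over all 37 members 7 rose and 20 fell, where 27.9% of all genes tested rose and 44.4% fell. The 4 of 14 20S genes that rose are near the first of these shares. The median change was -0.51 for 19S genes, 0.00 for 20S genes and -0.13 for all genes. With size factors (RLE), which brought the median of all genes to 0.00 in this step, 2 of 17 19S genes rose and 12 fell. On that scale 13 members rose and 18 fell, beside 4843 risen and 4754 fallen of all 13373 genes. Without the intermediate libraries 0 of 17 19S genes rose and 12 fell, beside 2715 and 4642 of all 12994 genes tested.

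From P0.5 to P10, 11 of 17 19S genes rose and 2 fell, and of 14 20S genes 4 rose and 8 fell. Of the members 16 rose and 12 fell, and of all genes 35.2% rose and 43.5% fell. The 20S counts of this step lie near those shares, and nothing particular to the 20S genes is read from them. From P10 to adult age 16 of 17 19S genes rose and 1 fell, and of 14 20S genes 4 rose and 4 fell. Of the members 21 rose and 7 fell, and of all genes 23.6% rose and 44.3% fell. With size factors 26 members rose and 4 fell in this last step, 16 and 0 of them 19S genes. Of all 13373 genes 4859 rose and 4360 fell on that scale. Without the intermediate libraries 8 of 17 19S genes rose and 0 fell in the last step, beside 2056 and 4282 of all 12994 genes. In the step before, 11 of 17 rose and 2 fell without these libraries, beside 3885 and 4781 of all genes. Neighbouring steps share the libraries of the age between them.

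The ATPase genes encode the ring that unfolds substrates and opens the core. Psmc5 was read at 460.3, 492 and 475 CPM at E15.5, 198, 181 and 189 CPM at P0.5, 519.5, 516 and 512 CPM at P10 and 1133, 1112 and 1150.0 CPM in adult spinal cord. The P0.5 libraries were the lowest and the adult ones the highest, and no age overlapped another. Psmc5 fell by 1.32 at birth (SE 0.049, adjusted p = 1.6e-11), rose by 1.44 to P10 (SE 0.049, adjusted p = 1.0e-12) and rose by 1.13 to adult age (SE 0.049, adjusted p = 6.1e-11).

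Psmc6 had 160.1, 164 and 167 CPM at E15.5, 78.1, 69.1 and 83.6 CPM at P0.5, 150.2, 144 and 144 CPM at P10 and 251, 233 and 244 CPM in adults. Its libraries were again lowest at P0.5 and highest in adults, with a fall by 1.08 (SE 0.064, adjusted p = 1.3e-09) and then a rise by 0.92 (SE 0.064, adjusted p = 2.7e-09). Psmc1, Psmc3 and Psmc4 also fell at birth and rose in each later step.

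Psmc2, another ATPase gene, took a different course. It had 117, 99.5 and 114 CPM at E15.5, 109, 99.7 and 104 CPM at P0.5, 72.6, 69.8 and 67.7 CPM at P10 and 119.6, 114 and 118 CPM in adults. Its lowest age was P10, after a fall by 0.56 (SE 0.065, adjusted p = 1.0e-06) and before a rise by 0.74 (SE 0.065, adjusted p = 1.2e-07).

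Among the base genes without ATPase activity, Psmd2 is a scaffold that docks ubiquitin carriers and Psmd4 is a ubiquitin receptor. Psmd2 had 137, 151 and 144 CPM at E15.5, 63.2, 57.7 and 62.0 CPM at P0.5, 172, 172 and 172 CPM at P10 and 161, 129 and 142 CPM in adults. It fell by 1.22 (SE 0.072, adjusted p = 1.3e-09) and rose by 1.48 (SE 0.072, adjusted p = 4.4e-11). From P10 to adult age it was the only 19S gene called as falling, by 0.26 (adjusted p = 0.0049, and 0.092 without the intermediate libraries), or -0.052 with size factors. Psmd4 had 268 to 279 CPM at E15.5, 170.0 to 177 CPM at P0.5, 280.2 to 293 CPM at P10 and 444 to 465 CPM in adults, the highest age without overlap. It fell by 0.65 at birth (adjusted p = 1.2e-08) and rose by 0.72 (adjusted p = 1.6e-09) and 0.68 (adjusted p = 9.1e-09) in the next steps.

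The lid holds the deubiquitinase Psmd14 and scaffold subunits such as Psmd12. Psmd12 was read at 165, 158 and 170.2 CPM at E15.5, 77.1, 72.9 and 77.1 CPM at P0.5, 157, 179.7 and 161 CPM at P10 and 327, 299 and 314 CPM in adults. Its P0.5 libraries lay below and its adult libraries above all the others, while E15.5 and P10 overlapped. It fell by 1.11 (SE 0.062, adjusted p = 7.0e-10), then rose by 1.12 (adjusted p = 1.8e-10) and 0.92 (adjusted p = 5.3e-09). Psmd8, another lid gene, had means of 225, 234, 152 and 166 CPM over the 4 ages and fell by 0.62 from P0.5 to P10 (SE 0.048, adjusted p = 8.0e-09). Psmd3 did not pass the test in either of the first steps, with means of 87.3, 85.7 and 88.7 CPM.

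By age, 13 of 17 19S genes had their lowest spinal cord mean at P0.5 and the other 4 at P10, and 12 of 17 had their highest mean in adults. The 14 standard 20S genes were spread out, with the lowest mean in adults for 7, at P10 for 3 and at E15.5 and P0.5 for 2 each. The ages of lowest and highest mean were not counted over all genes, so nothing particular to either list is read from these counts. Summed over the subset, the ATPase genes had 1488 ± 5.28, 821 ± 31.9, 1436 ± 14 and 2352 ± 59.1 CPM from E15.5 to adult age (SD, n = 3). The lid genes summed to 1226 ± 36.2, 995 ± 11.2, 1091 ± 16.4 and 1405 ± 13.0 CPM and were likewise lowest at P0.5 and highest in adults. The alpha ring summed to 2922 ± 161, 2514 ± 37.5, 2379 ± 42.7 and 2256 ± 45.9 CPM, with its lowest sum in adults.

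**Figure D1:**
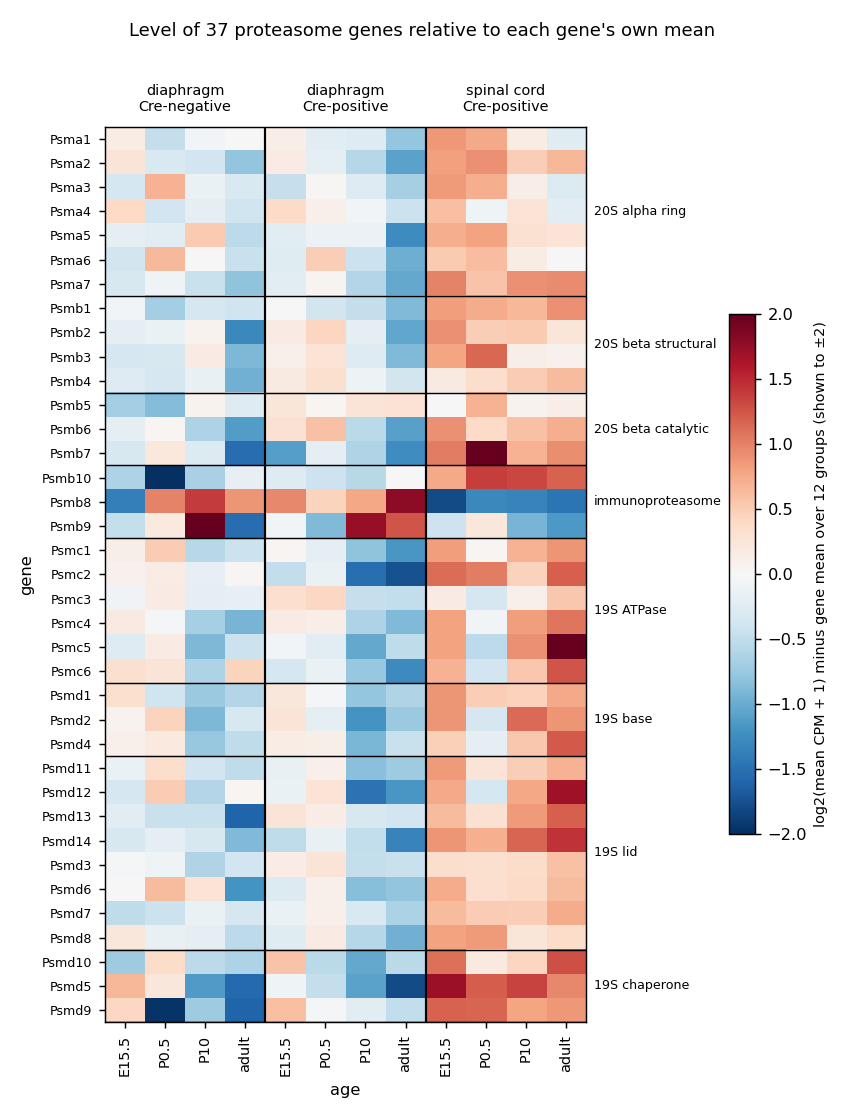
Colour shows log2(mean CPM + 1) of 37 genes (rows, grouped by role) minus each gene's mean over 12 groups (columns, by tissue and genotype and then age), limited to 2 in either direction, with red above and blue below the gene's own mean. In spinal cord most 19S rows are redder in adults than at P0.5, as for Psmc5 with means of 1132 and 189 CPM, and Psmb8 is blue at all 4 ages of spinal cord.

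The catalytic genes of the 20S core split at birth. Psmb7, which encodes the trypsin-like site, had 189, 163 and 182 CPM at E15.5, 451, 454 and 446 CPM at P0.5, 148, 137 and 142 CPM at P10 and 172, 169 and 162 CPM in adult spinal cord. The P0.5 libraries stood above all the others, where those of Psmc5 and Psmd12 stood below. Psmb7 rose by 1.34 (SE 0.059, adjusted p = 6.8e-11) and then fell by 1.65 (SE 0.059, adjusted p = 1.5e-12).

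Psmb5, the chymotrypsin-like site, had 486, 489.6 and 478 CPM at E15.5, 827, 747 and 768 CPM at P0.5, 518, 485 and 506 CPM at P10 and 547, 507 and 519 CPM in adults. P0.5 was again above every other library, after a rise by 0.69 (SE 0.053, adjusted p = 2.0e-08) and before a fall by 0.63 (SE 0.053, adjusted p = 2.1e-08). Psmb6, the caspase-like site, went the other way, with 1529, 1502 and 1514 CPM at E15.5, 1070.0, 1034 and 1031 CPM at P0.5, 1131, 1259.5 and 1207 CPM at P10 and 1458, 1233 and 1297 CPM in adults. It fell at birth by 0.54 (SE 0.060, adjusted p = 1.1e-06) and its P0.5 libraries were the lowest. Its later changes, 0.20 (adjusted p = 0.0071) and 0.15 (adjusted p = 0.041), did not pass without the intermediate libraries, at adjusted p of 0.13 and 0.19.

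Over the whole span from E15.5 to adult age, Psmb6 was lower in spinal cord by CPM (-0.19, adjusted p = 0.0077) and higher with size factors (0.28). Psmb7 differed by -0.086 by CPM (adjusted p = 0.18) and by 0.38 with size factors. The direction of both genes over the span therefore changed with the scaling.

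**Figure D2:**
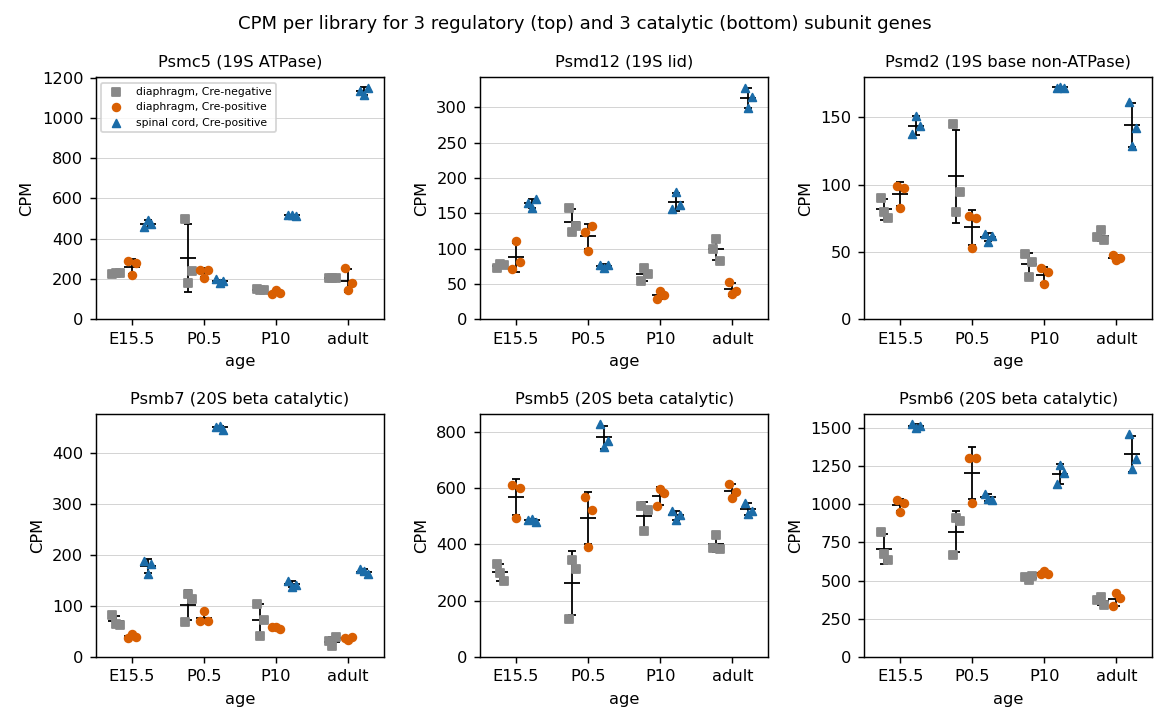
Points show CPM in each library at 4 ages for 3 regulatory genes (Psmc5, Psmd12 and Psmd2, top) and 3 catalytic genes (Psmb7, Psmb5 and Psmb6, bottom), with black bars for mean and SD (n = 3) and one symbol for each kind of sample. In spinal cord the top row and Psmb6 are lowest at P0.5, where Psmc5 has a mean of 189 CPM, while Psmb7 and Psmb5 are highest there, at 450.1 and 781 CPM.

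The structural genes of the core were mixed. Psmb3 had means of 689.9 ± 46.1, 881 ± 14.8, 434 ± 28.2 and 425 ± 7.43 CPM over the 4 ages (SD, n = 3), rising by 0.35 (adjusted p = 6.3e-05) and then falling by 1.02 (adjusted p = 2.8e-10). Of the alpha ring, Psma4 fell by 0.69 at birth (SE 0.051, adjusted p = 1.3e-08), from 338 ± 14.8 to 209 ± 5.01 CPM (SD, n = 3). Psma1 and Psma3 fell over the whole span, by 1.10 (adjusted p = 7.7e-11) and 1.13 (adjusted p = 1.1e-10). Their P10 means, 119 and 216 CPM, already lay below those at P0.5, 182 and 324 CPM.

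From E15.5 to adult spinal cord 9 of 17 19S genes rose and 2 fell, and of 14 20S genes 1 rose and 9 fell. Of the members 13 rose and 14 fell, and of all genes 26.3% rose and 58.1% fell. With size factors 27 members rose and 7 fell, 16 and 0 of them 19S genes and 7 and 5 of them 20S genes. Of all 13373 genes 5604 rose and 5439 fell on that scale. The median of all genes was -0.38 by CPM and 0.02 with size factors, and by CPM the median was 0.23 for 19S and -0.31 for 20S genes. Psmc5 rose by 1.25 (SE 0.049, adjusted p = 1.6e-12), Psmd12 by 0.93 (SE 0.062, adjusted p = 8.7e-10) and Psmd4 by 0.74 (SE 0.048, adjusted p = 5.9e-10).

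The assembly chaperone gene Psmd10 had 58.9, 55.5 and 55.1 CPM at E15.5, 30.1, 28.8 and 30.6 CPM at P0.5, 32.2, 39.5 and 33.9 CPM at P10 and 66.9, 65.0 and 61.6 CPM in adult spinal cord. It fell at birth by 0.90 (SE 0.072, adjusted p = 3.1e-08) and rose from P10 to adult age by 0.86 (SE 0.072, adjusted p = 6.3e-08). The other chaperone genes stood at 37.9, 26.5, 29.3 and 22.3 CPM for Psmd5 and at 34.0, 33.7, 25.8 and 27.3 CPM for Psmd9.

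The ratio of the summed 19S to the summed 20S CPM within a library does not depend on how libraries are scaled. It is a ratio of read shares and not of molecules, because CPM is not per length, so it was compared only between groups. In spinal cord it was 42.6%, 45.4% and 44.3% at E15.5, 29.8%, 29.6% and 30.1% at P0.5, 51.2%, 48.3% and 49.1% at P10, then 68.3%, 71.4% and 71.3% in adults. The P0.5 libraries were the lowest and the adult libraries the highest, with no overlap between any of the 4 ages. Each neighbouring step and the whole span gave p = 0.1 by a two-sided exact permutation test (0.133 adjusted over 12 comparisons), the smallest p that 3 against 3 libraries allow. Without Psmc5 the means were 37.7% ± 0.969, 27.2% ± 0.222, 41.2% ± 1.32 and 52.5% ± 1.05 (SD, n = 3), in the same order.

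In Cre-positive diaphragm the ratio was 43.1%, 41.2% and 43.2% at E15.5, 39.8%, 42.1% and 40.0% at P0.5, 32.7%, 32.3% and 32.2% at P10, then 47.8%, 39% and 42.4% in adults. P10 lay below the other ages without overlap. E15.5 and P0.5 overlapped (exact permutation p = 0.2, 0.24 adjusted), as did E15.5 and adult age (exact permutation p = 0.9). In Cre-negative diaphragm it was 47.3% to 53.1% at E15.5, 36.2% to 37.9% at P10 and 54.1% to 57.1% in adults, with P10 again the lowest. At P0.5 it was 71.7%, 47.1% and 51.0%, the first in the library that stood apart. P0.5 was thus the lowest age in spinal cord and P10 the lowest in diaphragm of both genotypes, a difference that was not tested for the ratio itself.

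**Figure D3:**
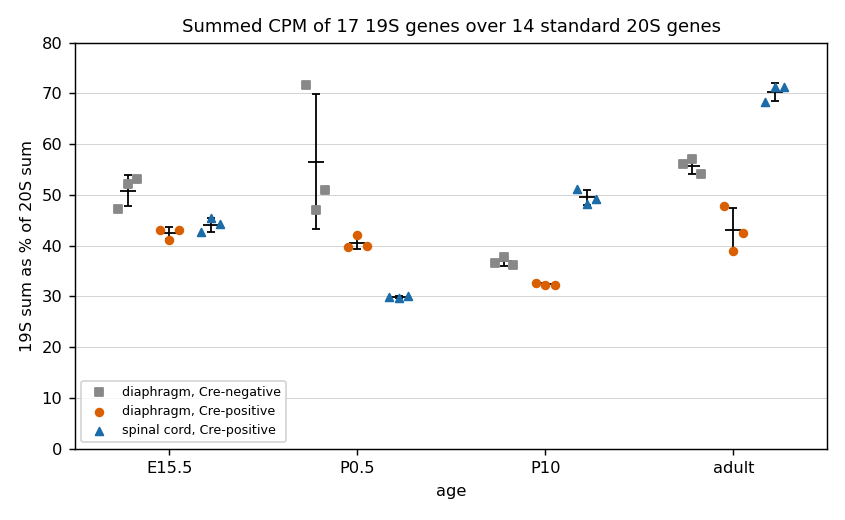
Points show, for each library at 4 ages, the summed CPM of 17 19S genes as a percentage of the summed CPM of 14 standard 20S genes, with black bars for mean and SD (n = 3) and one symbol for each kind of sample. Spinal cord has means of 44.1%, 29.9%, 49.5% and 70.3% from E15.5 to adult age, and diaphragm is lowest at P10, at 36.9% in Cre-negative and 32.4% in Cre-positive libraries.

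The E15.5-to-adult change was compared between spinal cord and Cre-positive diaphragm as an interaction in a joint fit of these 24 libraries. Of 17 19S genes 15 had the higher change in spinal cord and 0 the lower, with a median difference of 1.22, and of 14 20S genes 6 were higher and 1 lower, with a median of 0.44. Of the members 24 were higher and 2 lower, where 33.5% of all genes were higher and 24.5% lower, and all genes had a median difference of 0.18. With size factors 12 of 17 19S genes and 17 members were higher, and 0 and 4 lower. Of all 14831 genes 4712 were higher and 3871 lower on that scale. Without the intermediate libraries 11 of 17 19S genes and 16 members were higher, and 0 and 0 lower. Of all 14346 genes tested in that setting 2727 were higher and 2003 lower.

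Psmd12 differed by 1.95 (SE 0.23, adjusted p = 4.7e-07). Where it rose in spinal cord, in Cre-positive diaphragm it had 71.3, 111 and 81.9 CPM at E15.5 and 52.9, 35.3 and 39.6 CPM in adults, with no overlap. In Cre-negative diaphragm it was instead higher in adults, at 100, 114 and 83.2 CPM against 73.4, 77.7 and 77.4 CPM at E15.5, without overlap. The interaction was not fitted with Cre-negative diaphragm, so it holds against Cre-positive diaphragm only. Psmc5 differed by 1.72 (SE 0.20, adjusted p = 4.2e-07) and in Cre-positive diaphragm had 289, 219 and 278 CPM at E15.5 and 253, 145 and 180.0 CPM in adults, which overlap. Psmb6 differed by 1.2 (SE 0.13, adjusted p = 1.9e-07), and its Cre-positive diaphragm libraries had 1025, 947 and 1009 CPM at E15.5 and 332, 416 and 388 CPM in adults, with no overlap. The other catalytic genes did not pass this test, Psmb5 at 0.057 (SE 0.15, adjusted p = 0.76) and Psmb7 at 0.057 (SE 0.13, adjusted p = 0.73), but after quantile normalization Psmb7 passed it in the opposite direction, at -0.45 (adjusted p = 0.0092). Psmb9 had the lower change in spinal cord, -2.03 (SE 0.51, adjusted p = 0.0021, and 0.058 without the intermediate libraries).

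**Figure D4:**
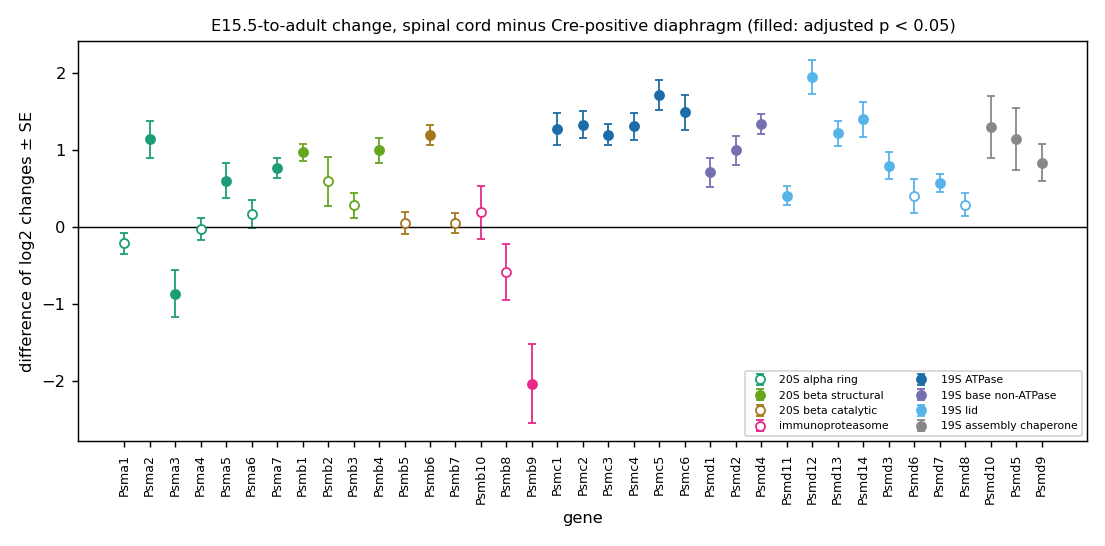
For each of 37 genes (x axis, coloured by role) the y axis gives the log2 change from E15.5 to adult age in spinal cord minus that in Cre-positive diaphragm, with bars for SE and filled points where the adjusted p is under 0.05. The 6 ATPase genes are all filled and above 0, with Psmc5 at 1.72 and Psmc6 at 1.5, while Psmb5 and Psmb7 lie at 0.057 and Psmb9 at -2.03.

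At a single age the tissues differed in the scale of the whole table. The median gene was higher in spinal cord than in Cre-positive diaphragm by 0.58, 0.80, 0.63 and 0.72 from E15.5 to adult age by CPM, and by 0.11, 0.22, 0.20 and 0.23 with size factors. At E15.5 30 members were higher and 1 lower in spinal cord (52.1% and 21.5% of all genes), or 11 and 6 with size factors. At P0.5 19 were higher and 4 lower (56.9% and 18.4% of all genes), but 4 higher and 19 lower with size factors, so the direction at birth changed with the scaling. At P10 33 were higher and 2 lower (53.1% and 19.9% of all genes), or 22 and 3 with size factors. In adults 32 were higher and 2 lower (55.3% and 19.5% of all genes), or 25 and 5 with size factors. With size factors 5523 of all 14831 genes were higher and 4547 lower at E15.5. At the later ages these were 6183 and 4385, 6007 and 4228, and 6278 and 4434 in turn. Of 17 19S genes 17 were higher by CPM at P10 and 17 in adults, and 13 and 15 with size factors.

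Psmc2 was at 117 ± 2.84 CPM in adult spinal cord and 14.4 ± 1.53 CPM in adult Cre-positive diaphragm (SD, n = 3), a difference of 2.95 (SE 0.12, adjusted p = 1.3e-14) or 2.15 with size factors. Psmc5 was at 1132 ± 19.2 and 193 ± 55.1 CPM, a difference of 2.59 (SE 0.14, adjusted p = 1.0e-12) or 1.76 with size factors. Psmb7 was already apart at E15.5, with 178 ± 13.2 and 40.2 ± 3.54 CPM (2.12, SE 0.093, adjusted p = 5.0e-14, or 1.51 with size factors). At each of these genes every spinal cord library was above every Cre-positive diaphragm library. Psmb5 in adults, at 524 ± 20.4 and 589 ± 24.8 CPM, did not pass the test by CPM (-0.17, SE 0.10, adjusted p = 0.15) and was lower in spinal cord with size factors (-1.0).

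In diaphragm of both genotypes weighted equally, most 19S genes fell between P0.5 and P10, the step at which most rose in spinal cord. From E15.5 to P0.5 7 members rose and 7 fell (11.4% and 35.1% of all genes), or 9 and 1 with size factors. From P0.5 to P10 2 members rose and 18 fell (21.4% and 13% of all genes), and the counts were again 2 and 18 with size factors. The 18 were 13 of 17 19S genes, 4 of 14 20S genes and 1 of 3 chaperone genes. From P10 to adult age 4 members rose and 14 fell (8.01% and 24% of all genes), with 10 of 14 20S genes fallen, or 7 and 5 members with size factors. With size factors 2053 of all 13853 genes rose and 3957 fell in the first step, then 2899 and 1979, and 2006 and 2501. Their medians were then -0.23, 0.11 and -0.056, so size factors did not centre all genes in diaphragm. Without the intermediate libraries the member counts of these 3 steps were 1 risen and 1 fallen, 1 and 6, and 0 and 2. Of all 13284 genes tested in that setting 657 rose and 1744 fell, then 642 and 468, and 158 and 715.

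Marker sums of the same diaphragm libraries also differed between ages. The summed skeletal muscle markers given above were highest at P0.5, without overlap with any other age. Erythroid markers summed to 63608 to 117997 CPM at E15.5, 2788 to 6758 CPM at P0.5, 10979 to 16648 CPM at P10 and 5028 to 9650.2 CPM in adults. Hepatocyte markers summed to 8662 to 11241 CPM at E15.5, 52.1 to 11431 CPM at P0.5, 12.2 to 556 CPM at P10 and 4.06 to 375 CPM in adults, with the P0.5 maximum in Cre-positive replicate 2. Fibroblast markers summed to 1030 to 2382 CPM at E15.5, 1277 to 5306 CPM at P0.5, 1307 to 2541 CPM at P10 and 171 to 409 CPM in adults. Their part in the diaphragm age changes was not tested.

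The alpha-ring gene Psma6 rose at birth in diaphragm, from 181 ± 34.4 to 334 ± 51.3 CPM (SD, n = 6), by 0.88 (SE 0.13, adjusted p = 6.5e-06). Psmd12 had 158, 123 and 132 CPM in Cre-negative and 123, 97.4 and 131 CPM in Cre-positive diaphragm at P0.5, and 54.1, 73.1 and 64.6 and 28.6, 40.2 and 34.1 CPM at P10. All P10 libraries were below all P0.5 libraries, and it fell by 1.42 (SE 0.15, adjusted p = 1.9e-07). Psmd2 fell in that step from 87.3 ± 31.3 to 37 ± 7.85 CPM (SD, n = 6), by 1.17 (SE 0.15, adjusted p = 4.9e-06).

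With both genotypes weighted equally, the catalytic genes Psmb5 and Psmb6 again parted in diaphragm from P0.5 to P10. Psmb6 fell by 0.88 (SE 0.092, adjusted p = 2.6e-07), from 1013 ± 251 to 535 ± 20.6 CPM (SD, n = 6). Psmb5 rose by 0.63 (SE 0.16, adjusted p = 0.004, and 0.059 without the intermediate libraries), from 378 ± 156 to 537 ± 53.2 CPM. In Cre-negative diaphragm it went from 134, 343 and 311 CPM to 537, 446 and 523 CPM, with the 134 CPM in the library that stood apart. In Cre-positive diaphragm the ages overlapped, with 567, 392 and 523 CPM at P0.5 and 536, 596 and 582 CPM at P10. From P10 to adult age the structural gene Psmb3 fell by 0.84 (SE 0.11, adjusted p = 8.3e-06) and Psmb2 by 1.12 (SE 0.19, adjusted p = 8.6e-05).

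Over the whole span 1 member rose and 18 fell in Cre-negative diaphragm (16.3% and 34.9% of all genes), and 0 rose and 25 fell in Cre-positive diaphragm (10.9% and 36.2% of all genes). With size factors these were 3 and 9, and 1 and 7, and without the intermediate libraries 0 and 8, and 0 and 7. With size factors 2955 of all 13853 genes rose and 3917 fell without Cre, and 2530 and 3665 with Cre. Their medians were then -0.15 and -0.22. Without the intermediate libraries 949 of all 13284 genes rose and 2205 fell without Cre, and 604 and 1980 with Cre. By CPM the median member changed by -0.49 without Cre and by -0.83 with Cre, beside all-gene medians of -0.43 and -0.59. Psmb6 fell by 0.94 in Cre-negative diaphragm (SE 0.13, adjusted p = 3.6e-06), from 817, 672 and 633 CPM to 369, 391 and 340.2 CPM, and by 1.39 in Cre-positive diaphragm (SE 0.13, adjusted p = 1.4e-08). Psmb5 and Psmb7 did not pass the test in Cre-positive diaphragm, at 0.056 (adjusted p = 0.86) and -0.14 (adjusted p = 0.7).

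The chaperone genes Psmd5 and Psmd9 also fell over the span in Cre-negative diaphragm. Psmd5 went from 18 ± 0.559 to 3.06 ± 2.56 CPM (SD, n = 3), by -2.51 (SE 0.48, adjusted p = 1.6e-04, and 0.018 without the intermediate libraries). Psmd9 went from 19.6 ± 6.84 to 4.11 ± 1.60 CPM, by -2.0 (SE 0.32, adjusted p = 1.8e-05, and 0.018 without the intermediate libraries).

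The study's design sets Cre-positive against Cre-negative diaphragm, and between 3 and 11 members were called at each age, none of which was called without the intermediate libraries. At E15.5 3 members were higher and 0 lower in Cre-positive libraries (4.88% and 6.11% of all genes), and the 3 were Psmb4, Psmb5 and Psmb6. At P0.5 8 were higher and 3 lower (12.1% and 15.7% of all genes), or 17 and 0 with size factors. At P10 0 were higher and 3 lower (0.419% and 1.03% of all genes), and in adults 3 were higher and 6 lower (3.06% and 8.92% of all genes). Size factors gave 5 and 0 at E15.5, 0 and 1 at P10, and 5 and 3 in adults. With them 827 of all 13853 genes were higher and 537 lower at E15.5, then 2603 and 1295, 77 and 80, and 962 and 795. The all-gene medians with size factors were 0.06, 0.21, 0 and 0.03 in turn. Without the intermediate libraries limma called 0 members at each of the 4 ages. Over all genes it called 6 higher and 1 lower at E15.5, then 89 and 19 at P0.5, 0 either way at P10, then 6 and 8 in adults, with 1036, 2335, 246 and 1042 genes at an unadjusted p under 0.05. With all libraries edgeR called 35 genes higher and 14 lower at P10, 0 of them members.

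Single libraries also moved these counts by over 1.5 times. The 3 calls at E15.5 became 10 without P0.5 Cre-negative replicate 1, and 0 without replicate 1 or without replicate 3 of E15.5 Cre-positive diaphragm. The 11 calls at P0.5 became 7 without P0.5 Cre-positive replicate 1. The 3 calls at P10 became 1 without P10 Cre-negative replicate 3 and 0 without P10 Cre-positive replicate 3.

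Psmb5 had 610.1, 494 and 601 CPM in Cre-positive and 331, 299 and 271 CPM in Cre-negative diaphragm at E15.5, without overlap (0.92, SE 0.23, adjusted p = 0.012, and 0.55 without the intermediate libraries). At P0.5 it had 567, 392 and 523 CPM against 134, 343 and 311 CPM, the lowest in the library that stood apart (1.0, SE 0.23, adjusted p = 0.0026, and 0.12 without the intermediate libraries). The 392 CPM were in Cre-positive replicate 2, the library with the P0.5 maximum of the hepatocyte markers, and replicates 1 and 3 lay close together. The ATPase gene Psmc2 was lower in Cre-positive libraries in adults, with 15.9, 12.9 and 14.4 CPM against 51.2, 39.4 and 64.1 CPM, without overlap (-1.75, SE 0.26, adjusted p = 1.0e-04, and 0.17 without the intermediate libraries). Psmd12 was lower there too, with 52.9, 35.3 and 39.6 CPM against 100, 114 and 83.2 CPM (-1.21, SE 0.21, adjusted p = 4.7e-04, and 0.31 without the intermediate libraries). The summed motor neuron markers overlapped between the genotypes. Of the 6 markers 4, 4, 5 and 2 were at 0 in all libraries of the Cre-negative groups from E15.5 to adult age. In the Cre-positive groups 1, 2, 1 and 1 were. Over all genes, single Cre-negative libraries had 23.0% to 46.2% at 0 and Cre-positive ones 15.4% to 33.6%. Nothing particular to the markers is therefore read from these counts.

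The immunosubunit Psmb8 replaces Psmb5, Psmb9 replaces Psmb6 and Psmb10 replaces Psmb7 in the immunoproteasome. Psmb8 was low in spinal cord, at 1.45, 1.26 and 1.67 CPM at E15.5, 2.52, 2.77 and 2.16 CPM at P0.5, 2.22, 2.60 and 2.37 CPM at P10 and 2.19, 1.95 and 2.17 CPM in adults. In Cre-positive diaphragm it was read at 8.70, 24 and 13.9 CPM, 8.28, 15.6 and 8.07 CPM, 13.1, 14.8 and 13.0 CPM and 33.3, 22.7 and 29.2 CPM at the same ages, above spinal cord in every library. The difference was -2.65 at E15.5, -1.69 at P0.5, -2.10 at P10 and -3.23 in adults, and the adjusted p was 1.5e-08, 6.7e-06, 3.9e-07 and 5.9e-10 in turn. In Cre-negative diaphragm it was 0.171, 2.43 and 4.28 CPM at E15.5, 0, 24.8 and 23.3 CPM at P0.5, 21.0, 22.3 and 21.5 CPM at P10 and 14.5, 22.9 and 6.76 CPM in adults, with the 0 in the library that stood apart.

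Markers of immune cells moved with this difference in part. Summed lymphocyte markers were 0.260 to 0.948 CPM in spinal cord, 0.576 to 7.51 CPM in Cre-positive and 0.189 to 8.38 CPM in Cre-negative diaphragm, and of the 6 markers 1 to 5 were at 0 in all libraries of a group. Summed markers of microglia and macrophages were 53.4 to 96.9 CPM in spinal cord, 81.3 to 311 CPM in Cre-positive and 75.5 to 205 CPM in Cre-negative diaphragm, and endothelial markers 9.49 to 51.6 CPM in spinal cord and 67.9 to 320 CPM in diaphragm. The part of these cells in the difference was not tested.

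Psmb10 was the other way round, higher in spinal cord at 79.0 to 82.8 CPM at E15.5, 126 to 127 CPM at P0.5, 121 to 124 CPM at P10 and 105 to 114 CPM in adults. It rose at birth by 0.63 (SE 0.051, adjusted p = 3.7e-08). From P10 to adult age it changed by -0.17 by CPM (adjusted p = 0.0088) and by 0.040 with size factors. At P10 Cre-positive diaphragm had 26.7, 35.0 and 34.5 CPM, without overlap with spinal cord (1.91, SE 0.24, adjusted p = 6.6e-07, or 1.32 with size factors). As a percentage of Psmb7 CPM, Psmb10 had means of 46.0%, 28.1%, 86.1% and 65.0% in spinal cord from E15.5 to adult age. In Cre-positive diaphragm these were 98.2%, 44.5%, 56.4% and 131%, so by this measure spinal cord was higher only at P10. The difference in this percentage was not tested.

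Psmb9 was low in both tissues. In spinal cord it had 1.28, 1.11 and 2.16 CPM at E15.5, 3.39, 2.69 and 2.67 CPM at P0.5, 0.857, 0.664 and 0.739 CPM at P10 and 0.281, 0.442 and 0.825 CPM in adults, rising by 0.66 at birth (adjusted p = 0.0011) and falling by 1.16 to P10 (adjusted p = 4.1e-06). In Cre-positive diaphragm it had 2.26, 2.81 and 1.59 CPM, 1.45, 0 and 1.02 CPM, 3.95, 17.4 and 9.36 CPM and 9.51, 5.94 and 5.71 CPM at the same ages, and in Cre-negative diaphragm 0.769, 1.57 and 1.93 CPM, 0, 4.58 and 4.01 CPM, 13.3, 12 and 12 CPM and 0, 0 and 0.519 CPM. It rose in diaphragm from P0.5 to P10 by 2.34 (SE 0.38, adjusted p = 6.6e-05, and 0.011 without the intermediate libraries). In adult diaphragm it was higher in Cre-positive libraries by 2.78 (SE 0.54, adjusted p = 0.0016), but adjusted p was 0.25 without the intermediate libraries and 0.051 with edgeR on the recovered reads.

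**Figure D5:**
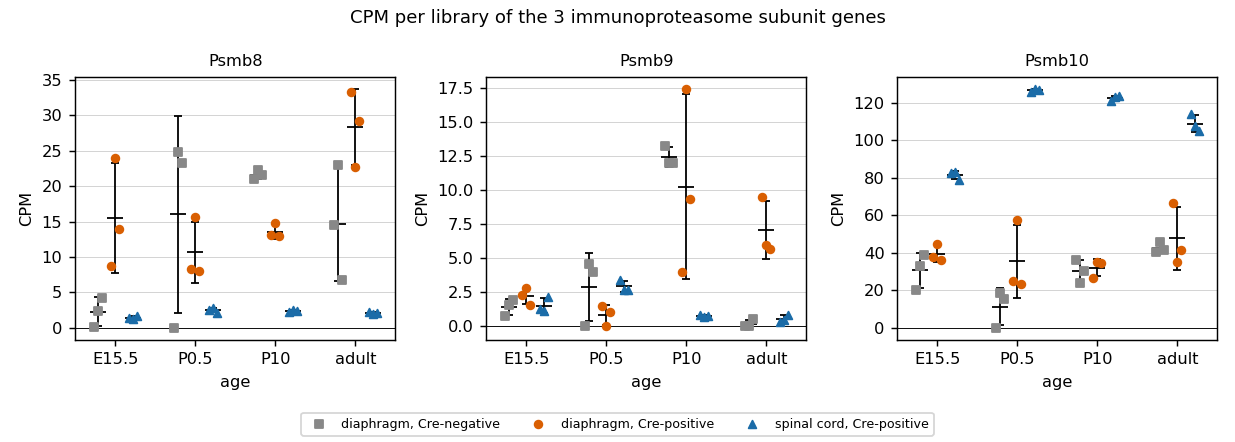
Points show CPM of Psmb8, Psmb9 and Psmb10 in each library at 4 ages, with black bars for mean and SD (n = 3) and one symbol for each kind of sample. Psmb8 is at or below 2.77 CPM in every spinal cord library and reaches 33.3 CPM in Cre-positive diaphragm, while Psmb10 has its highest values in spinal cord, up to 127 CPM.

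The tissue-restricted genes were close to 0, except for Psma8 in E15.5 Cre-negative diaphragm, at 4.15, 0.822 and 0 CPM. Psma8, known from testis, had 340, 66 and 0 reads in E15.5 Cre-negative diaphragm, 14, 0 and 10 reads in E15.5 Cre-positive and 22, 0 and 28 reads in P0.5 Cre-positive diaphragm, and 0 reads in each other diaphragm library. In spinal cord it had 4 to 18 reads in each library. Psmb11, known from thymic cortical epithelium, had at most 16 reads in any library.

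Other genes of the pathway are described by counts in the same fits, to be read beside the shares of all genes that rose and fell in spinal cord, 27.9% and 44.4% at birth, 35.2% and 43.5% to P10 and 23.6% and 44.3% to adult age. With size factors 4843 of all 13373 genes rose and 4754 fell at birth, 5311 and 5309 to P10, and 4859 and 4360 to adult age. Of 15 further proteasome parts, activators and assembly factors, 3 rose and 7 fell in spinal cord at birth, 5 rose and 7 fell to P10, and 8 rose and 4 fell to adult age. With size factors the split at birth was 6 risen and 5 fallen. Without size factors the shares of the first 2 steps are near those of all genes, and nothing particular to the list is read from them. Pomp, the chaperone that matures the 20S core, had means of 1365, 560.3, 1633 and 2848 CPM over the ages. It fell by 1.28 and rose by 1.54 and 0.80, the same directions as Psmc5. Psme1, a subunit of the PA28 activator that interferon induces, had 236 CPM at P0.5, 51.4 CPM at P10 and 19.7 CPM in adult spinal cord, and over the whole span fell by 3.41 (SE 0.080, adjusted p = 6.1e-15). Its change differed from that in Cre-positive diaphragm by -3.61 (SE 0.20, adjusted p = 2.4e-11).

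Of 4 tested genes for transcriptional control of the subunits, 0 rose and 3 fell in spinal cord at birth, 4 rose to P10, and 1 rose and 2 fell to adult age, or 2 and 1 in that last step with size factors. Of all genes 27.9% rose and 44.4% fell at birth and 35.2% and 43.5% to P10, and nothing is read from so short a list. Nfe2l1, which drives subunit genes when proteasome activity is short, rose over the whole span by 0.76 in spinal cord (74.7 to 127 CPM), by 1.60 in Cre-positive diaphragm (30.1 to 93.6 CPM) and by 1.16 in Cre-negative diaphragm (43.4 to 97.9 CPM). Nfe2l2, the regulator of the antioxidant response, had 3.10, 0.821, 15.9 and 1.86 CPM over the ages of spinal cord and was highest at P10, with a rise by 3.21 (adjusted p = 1.0e-12).

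Of 6 genes for ubiquitin and its activation, 1 rose and 3 fell in spinal cord at birth and 3 rose and 3 fell to P10, or 2 and 2 and then 3 and 1 with size factors. All genes had 27.9% risen and 44.4% fallen, then 35.2% and 43.5%, and nothing particular to these genes is read from the counts. The polyubiquitin gene Ubb fell by 1.40 and rose by 0.92 in these steps, with means of 9369.5, 3551 and 6702 CPM. Over the whole span it fell in diaphragm, by 1.65 in Cre-negative and 1.94 in Cre-positive libraries. Of 5 muscle ubiquitin ligase genes, 3 rose and 2 fell in diaphragm at birth, 1 rose and 1 fell to P10, and 3 rose and 0 fell to adult age. All genes in diaphragm had 11.4% and 35.1%, 21.4% and 13%, and 8.01% and 24% in these steps, and the skeletal muscle marker sums of these libraries were 58175 to 81180.1 CPM at E15.5 and 153512 to 167980 CPM at P0.5. Their part in the ligase counts was not tested. Trim63 (MuRF1), which marks contractile proteins, had 6.76, 93.8, 28.6 and 67.2 CPM over the ages and rose by 3.85 (SE 0.25, adjusted p = 6.7e-11) at birth.

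Of 8 tested class I and interferon genes, 4 rose and 1 fell in spinal cord at birth, 1 rose and 5 fell to P10, and 6 rose and 2 fell to adult age. All genes had 27.9% and 44.4%, 35.2% and 43.5%, and 23.6% and 44.3% in these steps. B2m, the light chain of class I, had 32.1, 146 and 19.7 CPM from E15.5 to P10, rising by 2.14 (adjusted p = 1.6e-11) and falling by 2.83 (adjusted p = 1.5e-13), the same directions as Psmb9. In adults 0 of these genes were higher and 6 of 8 lower in spinal cord than in Cre-positive diaphragm (55.3% and 19.5% of all genes), or 0 and 8 with size factors.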

How the data were processed

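Values were per-library CPM for 18845 genes, as deposited by the authors in 1 table. The submitters' processing notes name Bowtie2 2.2.5, RSEM 1.2.12 and build mm10, without their roles. How reads shared with processed pseudogenes were split is not given in the sources used here. The low CPM values, 5632 to 11608 in each library, were all whole multiples of the worth of 1 read (tolerance 0.1 read), which gave each library's depth. Higher values were not checked in this way. The depth of P0.5 Cre-positive replicate 3 is an estimate, because its step lies near a power of 10. CPM is not per length, and without coding lengths no levels were compared between genes.

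Genes that reached 1 CPM in 3 or more of the libraries fitted were tested with limma 3.58.1 (R 4.3.3; trend and robust) on log2(CPM + 1), a pseudocount of 1, computed here. The fits were all 24 diaphragm libraries (13853 genes), the 12 spinal cord libraries (13373 genes), and both kinds of Cre-positive library together, 24 in all (14831 genes). P-values were adjusted over all genes of a fit (Benjamini-Hochberg, threshold 0.05), and the scripts were tested on simulated data. The alternatives were a pseudocount of 0.1, no filter, quantile normalization, size factors (RLE), edgeR 4.0.16 (quasi-likelihood) on recovered reads, fits restricted to the groups compared, a replicate block, and leaving out the intermediate libraries or each library in turn.

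Named in each comparison were Psmb5 to Psmb11 and Psma8 where measured, up to 2 called members of each subset and direction with the largest change, and up to 3 called genes of each pathway list. The text gives a selection of these, and further genes as means or counts. Members and lists were chosen with earlier results of these data known. Windows, gene positions and sequences are RefSeq's (GRCm38.p6), and 18719 gene identifiers matched its table.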

Additional observations from a re-analysis of the deposited data

Results flagged for a closer look

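The E15.5-to-adult change of 26 members differed between spinal cord and Cre-positive diaphragm by the interaction test (limma, adjusted p under 0.05), 24 of them higher and 2 lower in spinal cord. Named 19S genes with the higher change in spinal cord were Psmd12 (1.95), Psmc5 (1.72), Psmc6 (1.5), Psmd14 (1.40), Psmd4 (1.34) and Psmd2 (1.0). Of the assembly chaperones, Psmd10 (1.30) and Psmd5 (1.15) passed the same test, with adjusted p of 0.11 and 0.17 without the intermediate libraries. Named 20S genes with the higher change in spinal cord were Psmb6 (1.2), Psma2 (1.14), Psmb4 (1.0), Psmb1 (0.97) and Psma7 (0.77). The lower changes were those of Psma3 (-0.86, adjusted p of 0.17 without the intermediate libraries) and Psmb9 (-2.03, adjusted p of 0.058 without them). Cre-negative diaphragm was not in this test. There, for example, Psmd12 was higher and Psmb9 lower in adults than at E15.5, as in spinal cord, while Psmc5 was lower in adults. Groups held 3 libraries each, too few for a test of outlying libraries.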

How the results depend on the processing

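Counts of called members are given beside the reported count where they moved by over 1.5 times. Calls over all genes also changed with the setting, so nothing particular to the members is read from these moves. With size factors the counts were 5 (3 reported), 17 (11) and 1 (3) for Cre at E15.5, P0.5 and P10, 12 (19) and 8 (25) for the span in Cre-negative and Cre-positive diaphragm, and 17 (31) for tissue at E15.5. With edgeR they were 17 for Cre at P0.5 and 0 at P10, 11 (18) for diaphragm from P10 to adult, 10 and 4 for the spans and 15 for tissue at E15.5. Quantile normalization gave 5 for Cre at E15.5, 7 for the Cre-positive span and 20 for tissue at E15.5, and fitting only the compared groups gave 5, 2 and 7 for Cre at E15.5, P0.5 and P10. Without the intermediate libraries, a setting with fewer libraries, the counts were 0 for Cre at each age, 2 (14), 7 (20) and 2 for the diaphragm steps, 8 and 7 for the spans, 14 (28) for spinal cord from P10 to adult and 16 (26) for the interaction. Leaving out 1 library gave 0 to 10, 7 to 15, 0 to 3 and 6 to 13 for Cre from E15.5 to adult age. It gave 12 to 16, 19 to 24 and 14 to 22 for the diaphragm steps, 15 to 22 and 23 to 30 for the spans, and 24 to 29, 27 to 28, 25 to 30 and 25 to 28 for the spinal cord steps and span. For tissue it gave 30 to 34, 23 to 28, 34 to 36 and 34 to 37, and for the interaction 25 to 28. The pseudocount, the absence of a filter and the replicate block left all 18 counts within 1.5 times.

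Over 172 named differences, 7 values changed sign with an adjusted p under 0.05 in the reported fit, the alternative or both. Changes of sign without a call in either fit were not counted. In spinal cord these were Psmb10 from P10 to adult (0.040 with size factors, 0.025 with edgeR), Psmb6 over the span (0.28 and 0.26) and Psmb7 over the span (0.38 and 0.36), and in the interaction Psmb7 (-0.45 with quantile normalization, adjusted p = 0.0092). The causes were not tested. Same-numbered replicates did not deviate together (correlations from -0.107 to 0.0994), so the replicate block is no pairing. With it 171 of 172 named differences kept their call and 1 gained it, and no count moved by over 1.5 times. Depth limits Psma8 and Psmb11 most, which had at most 16 reads for Psmb11 in any library and 18 for Psma8 in any spinal cord library.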
